A study of Mus musculus with 4 samples.

Results

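The genes described here encode the proteasome and the proteins that activate, inhibit or assemble it. They are all genes whose single symbol in the array's annotation begins with Psma, Psmb, Psmc, Psmd, Psme, Psmf or Psmg and ends in a number. This name rule used no measured value, but the family was chosen with earlier results of these data known. The rule gave 48 genes, read by 54 probe sets, of 19938 named genes and 35556 probe sets in all. Gene expression was measured in whole cochleas at E15 on 4 Affymetrix Mouse Gene ST arrays, each of which reads a transcript with short probes combined into probe sets. The wild-type group held 2 arrays, called replicates 2 and 3. The mutant group held 2 arrays, replicates 1 and 2, of *Meis2* flox/flox; *Pax2* Cre/+ embryos, in which a Cre driven by *Pax2* regulatory sequences deletes floxed *Meis2* in the otic placode and its derivatives and leaves the gene intact in cells without that driver.

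The proteasome degrades proteins that carry chains of ubiquitin. Its core particle is a barrel of alpha rings, which gate the entrance, around beta rings, which hold the proteolytic sites. A regulatory particle caps the barrel and binds ubiquitin chains, removes them and threads the unfolded protein into the core with a ring of ATPases. Chaperones assemble both particles, and other activators can replace the cap. Cells use the complex in the cell cycle, in signaling and in the disposal of damaged proteins, and when proteasome activity is low the transcription factor *Nfe2l1* raises the expression of proteasome genes.

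The deposited values are log2 signals that the authors computed with robust microarray analysis (RMA). A gene with several probe sets is represented by the one with the highest mean over the 4 arrays. A difference is the mean mutant log2 signal less the mean wild-type one, so that a difference of 1 is 2-fold. The test was limma's moderated linear model, which borrows information on spread across probe sets, with p-values adjusted over all 35556 of them, and "lower" and "higher" genes are those with an adjusted p under 0.05. *Meis2*, the targeted gene, had signals of 9.64 and 9.38 in wild-type cochleas, of 9.61 and 9.80 in mutant ones, and its difference of 0.19 (standard error 0.13, adjusted p = 0.284) did not pass the threshold. The genotype is not checked by this value, since the sources do not place the probe set inside the deleted exons. Median signals were 6.63 and 6.65 on wild-type and 6.73 and 6.72 on mutant arrays, and the sources do not say whether arrays of a genotype came from separate animals, so p-values measure the spread between these arrays only.

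Of the 48 proteasome genes, 25 were lower in mutant cochleas, 2 were higher and 21 did not pass the threshold. Among all named genes 16.2% were lower and 24.2% were higher, a balance that depends on scaling, since 40.1% of the called genes were lower with the deposited values and 54.7% after the arrays were set to one median. Over probe sets, 37.3% of all passed in either direction, and 29 of the 54 probe sets of proteasome genes were lower and 2 higher. The median difference of the proteasome genes was -0.37, beside 0.13 for all named genes. Dim and bright genes differed in their share of falls. At a mean log2 signal of 8 or more, 25 of 41 proteasome genes were lower and 2 were higher, against 26.8% and 27.2% of all such genes, with medians of -0.47 and 0.01. A fall of 2-fold or more was called for 9 proteasome genes, against 3.83% of named genes. Both mutant arrays lay below both wild-type arrays for 34 proteasome genes and above them for 8, against 26.6% and 53.8% of named genes. The mean signal over the 48 genes was 9.45 and 9.57 in wild-type and 9.11 and 9.03 in mutant cochleas, so that the genotypes did not overlap. The count of 25 lower genes was 22 without wild-type replicate 2, 17 without wild-type replicate 3, 15 without mutant replicate 1 and 11 without mutant replicate 2. Over all named genes the lower share under the same settings was 16.2%, 12%, 8.84% and 6.82%.

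**Figure D1:**
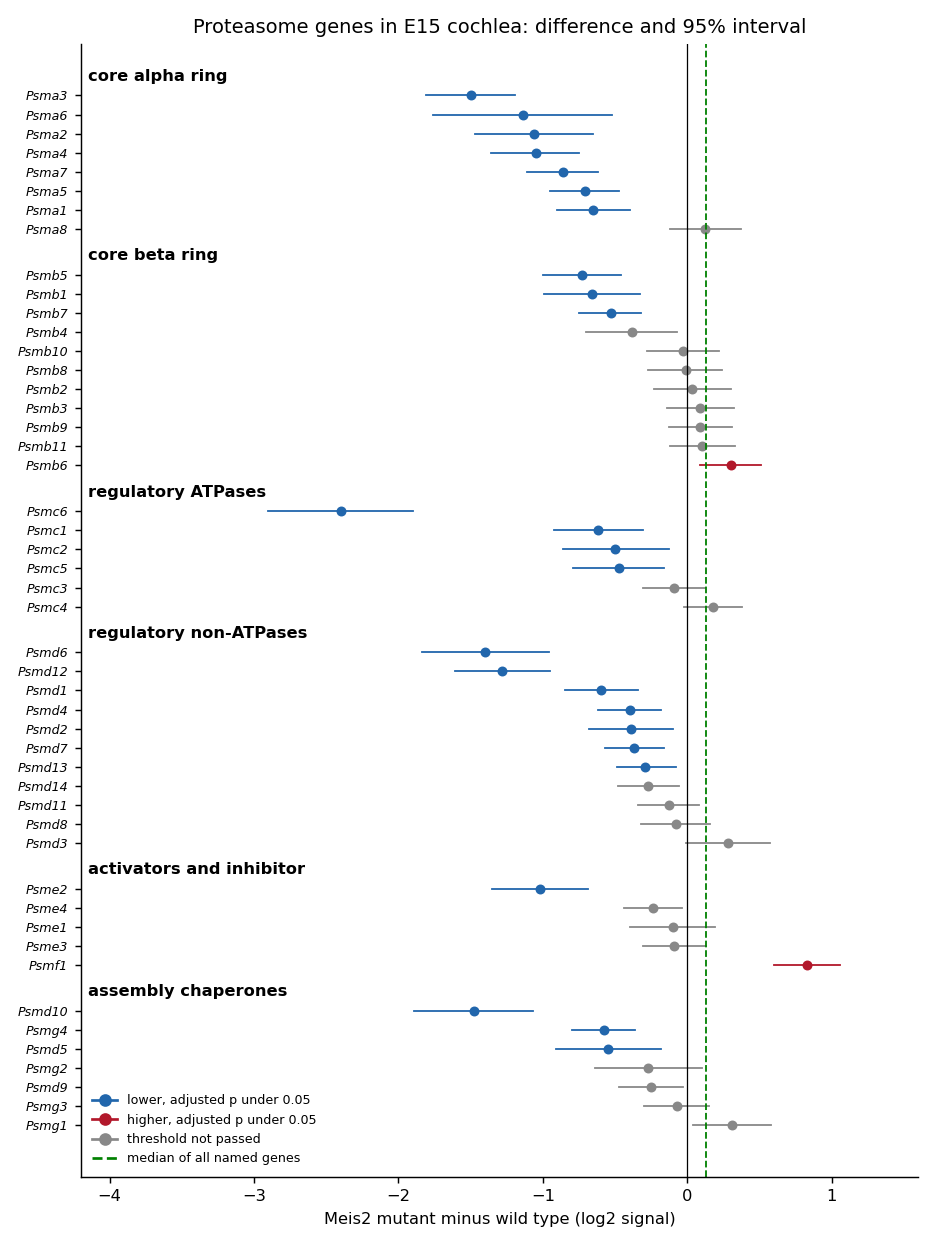
Difference in log2 signal between mutant and wild-type cochleas (x axis) for each of the 48 proteasome genes (y axis, by role). Points are estimates from 2 arrays per genotype, bars are 95% confidence intervals from limma and the dashed line is the median of all named genes (0.13). *Psmc6* lies farthest to the left at -2.40, 7 of 8 alpha genes are lower, and *Psmf1* (0.83) and *Psmb6* (0.30) are the genes called higher, the latter not after median scaling.

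A promoter sequence of 300 bases, from 250 before to 50 after the start site, was found in RefSeq (build GRCm38.p6) for 40 of the 48 genes. Both strands were searched for TGACNNNGC, the core of the antioxidant response element through which *Nfe2l1* and its relative *Nfe2l2* act. At least 1 match was present in 6 of the 40 genes (15%), against 14% of all 27025 genes with a promoter in the table and 16.5% of the 6517 such genes with a mean log2 signal of 8 or more. The 6 genes were *Psmb5*, *Psmb6*, *Psmc6*, *Psmd9*, *Psmd12* and *Psme4*, of which 3 were lower and 1 was higher. Shown are the promoters of the 4 called genes, including the gene with the largest fall and the catalytic subunit that was higher, and, as a contrast with neither motif in capitals, that of *Psmf1*, the gene with the largest rise. Capitals mark TGACNNNGC on either strand.

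Psmc6 promoter, GRCm38 chr14:45329574-45329873, plus strand, a gene that fell: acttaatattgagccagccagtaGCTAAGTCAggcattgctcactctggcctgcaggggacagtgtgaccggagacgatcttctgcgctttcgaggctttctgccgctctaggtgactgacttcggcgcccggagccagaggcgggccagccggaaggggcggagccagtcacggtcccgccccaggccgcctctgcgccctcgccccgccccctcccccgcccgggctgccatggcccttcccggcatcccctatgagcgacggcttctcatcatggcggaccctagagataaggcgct

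Psmd12 promoter, GRCm38 chr11:107479278-107479577, plus strand, a gene that fell: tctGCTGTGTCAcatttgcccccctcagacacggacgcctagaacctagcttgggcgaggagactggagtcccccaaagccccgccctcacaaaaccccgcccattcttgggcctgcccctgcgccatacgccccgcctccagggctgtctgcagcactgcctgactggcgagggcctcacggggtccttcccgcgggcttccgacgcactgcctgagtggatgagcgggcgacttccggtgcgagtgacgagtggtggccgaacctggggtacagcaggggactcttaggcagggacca

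Psmb5 promoter, GRCm38 chr14:54617946-54618245, minus strand, a gene that fell: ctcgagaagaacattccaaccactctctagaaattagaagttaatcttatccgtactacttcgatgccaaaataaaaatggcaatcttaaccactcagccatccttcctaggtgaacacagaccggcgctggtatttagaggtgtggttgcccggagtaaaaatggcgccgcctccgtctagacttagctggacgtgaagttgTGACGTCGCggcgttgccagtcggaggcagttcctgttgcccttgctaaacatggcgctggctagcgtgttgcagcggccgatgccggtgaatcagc

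Psmb6 promoter, GRCm38 chr11:70525107-70525406, plus strand, a gene that rose: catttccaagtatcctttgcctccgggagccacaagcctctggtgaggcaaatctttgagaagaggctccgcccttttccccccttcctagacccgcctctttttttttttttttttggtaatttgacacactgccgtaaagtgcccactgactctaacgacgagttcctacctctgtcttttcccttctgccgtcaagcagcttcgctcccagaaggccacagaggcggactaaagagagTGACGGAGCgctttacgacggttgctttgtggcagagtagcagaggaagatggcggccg

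Psmf1 promoter, GRCm38 chr2:151741261-151741560, minus strand, a gene that rose: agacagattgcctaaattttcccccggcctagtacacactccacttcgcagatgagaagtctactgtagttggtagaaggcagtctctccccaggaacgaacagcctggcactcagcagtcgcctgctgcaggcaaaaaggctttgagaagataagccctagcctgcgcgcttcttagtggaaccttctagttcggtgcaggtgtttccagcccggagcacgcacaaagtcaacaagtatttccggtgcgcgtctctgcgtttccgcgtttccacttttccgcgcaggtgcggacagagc

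Counted in bases from the start site, the match began at -227 in *Psmc6*, -247 in *Psmd12*, -47 in *Psmb5* and -9 in *Psmb6*. Genes with the motif had a median difference of -0.49 (6 genes, -2.40 to 0.30) and those without it a median of -0.40 (34 genes, -1.50 to 0.83). The Meis motif TGACAG was found in 6 of the 40 genes (15%, against 21.6% of all genes and 18.3% of bright ones), namely *Psmb4*, *Psmb11*, *Psmd5*, *Psmd6*, *Psmd8* and *Psmd10*, 3 of which were lower, and no match to it overlapped TGACNNNGC in these promoters. CCAAT was present in 14 genes (35%, against 41.1% of all genes and 42.7% of bright ones), 9 of which were lower. CCGGAA, a core bound by ETS factors, was present in 20 genes (50%), against 16.7% of all genes and 31.9% of bright ones. Counted over all 32851 promoters of the same length, the shares were 12.4% for TGACNNNGC, 19.2% for TGACAG, 37.4% for CCAAT and 14.9% for CCGGAA. Of these 20 genes 13 were lower, with a median of -0.43, and of the 20 without it 9 were lower, with a median of -0.26.

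In the alpha ring, 7 of 8 genes were lower (87.5%, beside 16.2% of all named genes and 26.8% of bright ones). They are all 7 constitutive alpha subunits. The ring's N-terminal tails close the gate of the barrel, and its top surface is where regulatory particles dock. *Psma3* had signals of 10.92 and 11.10 in wild-type and 9.62 and 9.40 in mutant cochleas. It fell by 1.50 with a standard error of 0.12 (limma, adjusted p = 0.00313), to 35.4% of the wild-type signal. *Psma6* was at 10.46 and 11.02 in wild-type and at 9.82 and 9.39 in mutant cochleas. Here the wild-type arrays stood farther apart than for any other constitutive alpha gene, and the fall of 1.14 had a standard error of 0.24 (adjusted p = 0.0223, and 0.0944 without mutant replicate 2). *Psma2* went from 9.33 and 9.51 to 8.56 and 8.17, a fall of 1.06 (standard error 0.16, adjusted p = 0.00944). *Psma4* went from 10.15 and 10.33 to 9.29 and 9.08, a fall of 1.05 (standard error 0.12, adjusted p = 0.00498). The other constitutive alpha genes, *Psma7*, *Psma5* and *Psma1*, fell by 0.86, 0.71 and 0.65, and in all 7 both mutant arrays lay below both wild-type arrays. The call of *Psma1* was lost without mutant replicate 2 (adjusted p = 0.0571). *Psma8*, an alpha subunit of the testis, was at 5.48 and 5.64 in wild-type and 5.66 and 5.72 in mutant cochleas, a difference of 0.12 (95% confidence interval -0.12 to 0.37) that did not pass the threshold.

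*Psma3* was read by 3 probe sets, all lower, by 1.50 to 1.57. Both probe sets of *Psma5* were also lower, by 0.71 and 1.02. Probe sets that share a symbol may also read processed copies of a gene, and RefSeq lists pseudogenes named after *Psma5*, *Psmb5*, *Psmb6* and *Psmb7*, so these values may mix transcripts. The representative probe set was chosen by signal alone. For *Psma3*, *Psma5*, *Psmb3*, *Psmc1* and *Psmd2*, which have several, it was not checked which one lies at the gene itself.

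**Figure D2:**
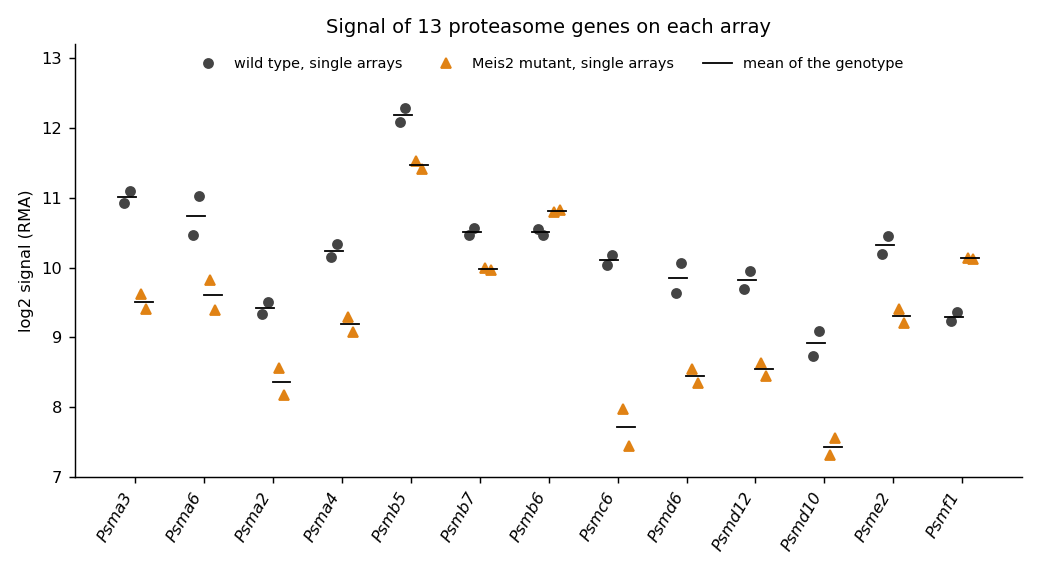
Log2 signal (y axis) of 13 proteasome genes on each of the 4 arrays (x axis, by gene). Circles are single wild-type arrays, triangles single mutant arrays and lines the mean of a genotype. The 13 were chosen from genes called lower or higher, and their genotypes do not overlap, which that choice favors. Of all named genes, 26.6% had both mutant arrays below both wild-type arrays and 53.8% above. Only *Psmb6* and *Psmf1* of those shown are higher in mutants.

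In the beta ring, 3 of 11 genes were lower (27.3%), 1 was higher (9.09%) and 7 did not pass the threshold. Over all named genes 16.2% were lower and 24.2% higher, and of bright ones 26.8% and 27.2%. The lower share of this ring was thus close to that of bright genes. The 3 catalytic subunits differed in direction. *Psmb5*, the subunit of the chymotrypsin-like site, was at 12.09 and 12.29 in wild-type and 11.52 and 11.41 in mutant cochleas, a fall of 0.73 (standard error 0.10, adjusted p = 0.00865). *Psmb7*, which carries the trypsin-like site, was at 10.46 and 10.56 in wild-type and 9.99 and 9.96 in mutant cochleas, a fall of 0.53 (standard error 0.08, adjusted p = 0.0107). *Psmb6*, which carries the caspase-like site, was at 10.55 and 10.47 in wild-type and 10.80 and 10.83 in mutant cochleas, a rise of 0.30 (standard error 0.08, adjusted p = 0.0414). The mutant arrays thus lay below the wild-type arrays for *Psmb5* and *Psmb7* and above them for *Psmb6*. The rise of *Psmb6* did not pass the threshold after median scaling or without any 1 of the 4 arrays (adjusted p up to 0.18), and the fall of *Psmb5* did not without mutant replicate 2 (adjusted p = 0.0568). That of *Psmb7* did not without either mutant array (adjusted p up to 0.0693).

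Among the non-catalytic beta genes, *Psmb1* was at 9.47 and 9.61 in wild-type and 9.03 and 8.74 in mutant cochleas, a fall of 0.66 (standard error 0.13, adjusted p = 0.0178, and up to 0.0749 without wild-type replicate 3 or mutant replicate 2). *Psmb4* had a difference of -0.38 (95% confidence interval -0.70 to -0.07, adjusted p = 0.0637), which passed the threshold with a trended prior, after median scaling, once dim probe sets were left out and without wild-type replicate 2. *Psmb2* (0.03) and *Psmb3* (0.09) had intervals of -0.23 to 0.30 and -0.14 to 0.32. The 2 probe sets of *Psmb3* pointed in different directions, at 0.09 and -0.19, and neither passed. Averaged over the 7 constitutive genes of each ring, the signal of the alpha genes was 10.02 and 10.22 on wild-type and 9.24 and 9.01 on mutant arrays, with single genes between -1.50 and -0.65. That of the beta genes was 10.87 and 11.00 on wild-type and 10.72 and 10.61 on mutant arrays, with single genes between -0.73 and 0.30. The difference between the rings was not tested.

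When interferon or inflammatory signals act, *Psmb8*, *Psmb9* and *Psmb10* replace *Psmb5*, *Psmb6* and *Psmb7* to form the immunoproteasome, which favors peptides for antigen presentation. None of the 3 inducible genes passed the threshold by limma, and 0 did at an unadjusted p under 0.05 or by significance analysis of microarrays (SAM). *Psmb8* was at 5.58 and 5.40 in wild-type and 5.48 and 5.47 in mutant cochleas, a difference of -0.01 (95% confidence interval -0.27 to 0.24). *Psmb9* was at 7.33 and 7.42 in wild-type and 7.50 and 7.43 in mutant cochleas, a difference of 0.09 (interval -0.13 to 0.31). *Psmb10* was at 7.75 on both wild-type arrays and at 7.82 and 7.63 in mutant cochleas, a difference of -0.03 (interval -0.28 to 0.22). Within each array, the log2 ratio of an inducible subunit to the constitutive one was also compared between genotypes, a measure in which only the change can be read since probe sets differ in brightness. *Psmb8* lay below the median signal of every array, and its own difference was -0.01 beside -0.73 for *Psmb5*. The ratio of *Psmb8* to *Psmb5* was higher by 0.71 in mutants (SD 0.27 and 0.08 for wild type and mutant, and 0.43 after a further quantile normalization) and that of *Psmb10* to *Psmb7* by 0.51 (SD 0.08 and 0.11). The ratio of *Psmb9* to *Psmb6* was lower by 0.21 (SD 0.12 and 0.07), and its difference was -0.12 without wild-type replicate 3. For each of these 3 ratios the genotypes did not overlap, and the two-sided exact permutation test gave p = 0.333 (also when adjusted over the 3), the smallest that 4 arrays allow. *Psmb11*, a subunit of thymus epithelium, had a difference of 0.10 (interval -0.12 to 0.33).

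**Figure D3:**
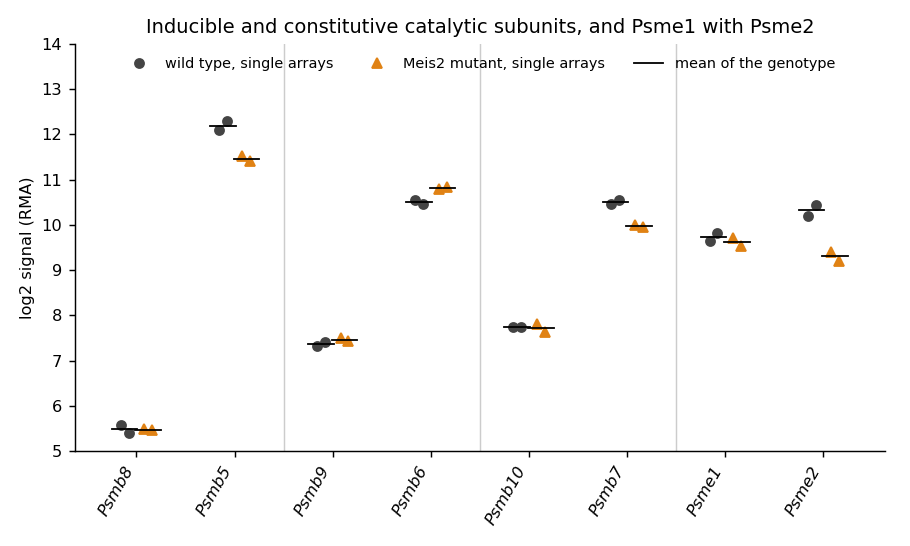
Log2 signal (y axis) of the inducible catalytic subunits, each beside the constitutive subunit it replaces, and of the activator genes *Psme1* and *Psme2* (x axis) on single wild-type (circles) and mutant (triangles) arrays, with the mean of a genotype as a line. *Psmb5*, *Psmb7* and *Psme2* are lower in mutants, *Psmb6* is higher without passing the threshold after median scaling, and the other 4 did not pass the threshold.

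The ATPase ring of the regulatory particle unfolds substrates and opens the gate of the core. Of its 6 genes, 4 were lower (66.7%, beside 16.2% of all named genes and 26.8% of bright ones). *Psmc6* had signals of 10.04 and 10.18 in wild-type and 7.98 and 7.44 in mutant cochleas. It fell by 2.40 (standard error 0.19, 95% confidence interval -2.90 to -1.90, adjusted p = 0.00317), to 18.9% of the wild-type signal, the largest fall among the 48 genes, and stayed past the threshold without each array in turn (-2.67 to -2.13). *Psmc1* was at 9.84 and 10.12 in wild-type and 9.33 and 9.39 in mutant cochleas, a fall of 0.62 (standard error 0.12, adjusted p = 0.0173), and its dimmer probe set was lower as well, by 0.90. *Psmc2* was at 8.67 and 8.96 in wild-type and 8.43 and 8.21 in mutant cochleas, a fall of 0.50 (standard error 0.14, adjusted p = 0.0481). *Psmc5* was at 8.41 and 8.50 in wild-type and 8.13 and 7.84 in mutant cochleas, a fall of 0.47 (standard error 0.12, adjusted p = 0.0367). *Psmc3* and *Psmc4*, the other members of the ring, had differences of -0.09 (interval -0.31 to 0.12) and 0.18 (interval -0.02 to 0.38) and did not pass the threshold. The calls of *Psmc1* (adjusted p up to 0.084), *Psmc2* (up to 0.197) and *Psmc5* (up to 0.145) were lost without mutant replicate 2. Those of *Psmc1* and *Psmc2* were also lost without mutant replicate 1, that of *Psmc2* after repeated quantile normalization too, those of *Psmc2* and *Psmc5* without wild-type replicate 3, and that of *Psmc5* without wild-type replicate 2.

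Of the 11 non-ATPase genes of the regulatory particle, 7 were lower (63.6%) and 4 did not pass the threshold. Over all named genes 16.2% were lower, and of bright ones 26.8%. Both genes with a fall of over 2-fold encode scaffold subunits of the lid, the part of the particle that removes ubiquitin chains. *Psmd6* was at 9.63 and 10.06 in wild-type and 8.54 and 8.35 in mutant cochleas, a fall of 1.40 (standard error 0.17, adjusted p = 0.00598). *Psmd12* was at 9.69 and 9.95 in wild-type and 8.64 and 8.44 in mutant cochleas, a fall of 1.28 (standard error 0.13, adjusted p = 0.0043). Both calls held without each array in turn. *Psmd1*, a large scaffold protein of the base, was at 10.86 and 11.05 in wild-type and 10.34 and 10.38 in mutant cochleas, a fall of 0.60 (standard error 0.10, adjusted p = 0.0119, and up to 0.0658 without either mutant array). *Psmd4*, a receptor for ubiquitin chains, was at 9.12 and 9.16 in wild-type and 8.79 and 8.68 in mutant cochleas, a fall of 0.40 (standard error 0.08, adjusted p = 0.0225). The remaining lower genes were *Psmd2*, the other large base scaffold, which fell by 0.39, the lid genes *Psmd7*, the partner of the deubiquitinase, which fell by 0.37, and *Psmd13*, which fell by 0.29. Leaving out 1 of at least 3 of the arrays ended the calls of *Psmd4* (adjusted p up to 0.126), *Psmd2* (up to 0.175), *Psmd7* (up to 0.131) and *Psmd13* (up to 0.178), in each case with either mutant array among them, and repeated quantile normalization ended those of *Psmd2* and *Psmd13*. The second probe set of *Psmd2* had a difference of -0.30 (adjusted p = 0.146) and was not called, nor was the mean of its probe sets.

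*Psmd14*, the deubiquitinase of the lid, was at 10.58 on both wild-type arrays and at 10.26 and 10.36 in mutant cochleas. Its difference of -0.27 (95% confidence interval -0.48 to -0.06, adjusted p = 0.0581) narrowly missed the threshold and passed it with a trended prior, after median scaling and once dim probe sets were left out. The lid genes *Psmd11* (-0.13) and *Psmd8* (-0.08) had intervals of -0.34 to 0.08 and -0.32 to 0.16. *Psmd3*, also a lid subunit, was the only one of the 11 with a positive difference, 0.28 (interval -0.01 to 0.57, adjusted p = 0.112).

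Among the 4 activator genes 1 was lower, and the inhibitor gene was higher. Over all named genes 16.2% were lower and 24.2% higher, and of bright ones 26.8% and 27.2%. *Psme1* and *Psme2* encode partners of one heteromeric ring that can replace the regulatory particle, and they differed here. *Psme2* was at 10.20 and 10.45 in wild-type and 9.40 and 9.21 in mutant cochleas, a fall of 1.02 (standard error 0.13, adjusted p = 0.00643), to 49.3% of the wild-type signal. *Psme1* was at 9.64 and 9.82 in wild-type and 9.72 and 9.54 in mutant cochleas, a difference of -0.10 (interval -0.40 to 0.19). The mutant arrays lay below both wild-type arrays for *Psme2* and overlapped them for *Psme1*. A further probe set, annotated to both *Psme2* and its copy *Psme2b* and so not counted among the members, fell from 8.52 and 9.12 to 7.48 and 7.47. *Psme3*, a nuclear activator, and *Psme4*, a nuclear activator with a role in sperm chromatin, had differences of -0.09 (interval -0.31 to 0.13) and -0.24 (interval -0.44 to -0.04, adjusted p = 0.0622). The latter passed with a trended prior and after median scaling.

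*Psmf1* encodes a protein first described as an inhibitor of the core particle. Its signals were 9.23 and 9.36 in wild-type and 10.14 and 10.12 in mutant cochleas, and it rose by 0.83 (standard error 0.09, 95% confidence interval 0.60 to 1.06, adjusted p = 0.00467), to 1.78 times the wild-type signal. The rise was 0.75 once the arrays had one median and 0.89 once they were quantile normalized again, and it passed the threshold in all alternatives, those without each array included. It is the only gene of the 48 of which that can be said for a rise.

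Of the 7 assembly chaperone genes, 3 were lower (42.9%) and 4 did not pass the threshold. Over all named genes 16.2% were lower, and of bright ones 26.8%. *Psmd10*, a chaperone of the ATPase ring also known as gankyrin, was at 8.74 and 9.09 in wild-type and 7.31 and 7.56 in mutant cochleas, a fall of 1.48 (standard error 0.16, adjusted p = 0.00474), to 35.9% of the wild-type signal. It is the only X-linked gene of the 48. *Xist*, the RNA of the inactive X, was at 5.54 in wild-type replicate 2, at 11.51 in wild-type replicate 3 and at 11.83 and 11.84 in mutants. The Y-linked *Eif2s3y* was at 8.76 and 7.77 in wild-type and 4.68 and 4.88 in mutant cochleas. Both mutant arrays thus had high *Xist* and low Y-linked signal, wild-type replicate 2 had the reverse, and wild-type replicate 3 had both signals. *Xist* did not pass the threshold, with the wild-type arrays this far apart. The sample labels give no sex and do not say whether samples were pooled. Sex-linked signal and genotype therefore cannot be told apart in any difference described here. The part of these sex-linked signals in the fall of *Psmd10* and in the other differences was not tested. *Psmg4*, which pairs with *Psmg3* to build the alpha ring, was at 8.34 and 8.40 in wild-type and 7.74 and 7.85 in mutant cochleas, a fall of 0.58 (standard error 0.09, adjusted p = 0.00922, and 0.0582 without mutant replicate 1). *Psmd5*, another chaperone of the ATPase ring, was at 9.21 and 9.58 in wild-type and 8.86 and 8.84 in mutant cochleas, a fall of 0.55 (standard error 0.14, adjusted p = 0.0367, and up to 0.139 without wild-type replicate 3 or either mutant array). Differences were -0.27 for *Psmg2*, -0.25 for the chaperone *Psmd9*, -0.07 for *Psmg3* and 0.31 for *Psmg1*, the partner of *Psmg2*, none past the threshold. That of *Psmd9* passed it after median scaling (-0.34, adjusted p = 0.0358).

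Genes of the same pathway outside the name rule were read from lists. Of 7 measured proteasome cofactors, all 7 were lower, with a median of -0.88, beside 16.2% of all named genes and 26.8% of bright ones. *Uchl5* and *Usp14*, deubiquitinases bound to the regulatory particle, fell by 1.90 and 0.88 (adjusted p = 0.0034 and 0.00474). *Sem1*, a small subunit of the lid, fell by 1.32, *Txnl1*, a thioredoxin-like protein bound to the particle, by 1.42, and *Pomp*, which matures the core particle, by 0.70. The others were *Ecpas*, a scaffold that joins core and cap, and *Akirin2*, which brings proteasomes into the nucleus, with falls of 0.48 and 0.47. *Adrm1* and *Paaf1* of the same list were not analysed here.

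Of 9 listed regulators of proteasome gene expression 8 were analysed here, of which 1 was lower (12.5%) and 2 were higher (25%). Over all named genes 16.2% were lower and 24.2% higher. *Nfe2l1* was at 9.80 and 9.86 in wild-type and 9.64 and 9.73 in mutant cochleas, a difference of -0.14 (interval -0.36 to 0.08) that did not pass the threshold. *Nfe2l2*, the oxidative stress factor that binds the same element, fell by 0.65 (adjusted p = 0.0112). *Syvn1*, an endoplasmic reticulum ubiquitin ligase that turns over *Nfe2l1* protein, rose by 1.03 (adjusted p = 0.00291), and *Mafg*, a small partner of both factors, rose by 0.44 (adjusted p = 0.0208). Of 14 genes listed for ubiquitin supply and delivery 8 were analysed here, and 2 of these were higher (25%). They were *Nploc4* and *Ubqln4*, which fetch ubiquitinated proteins and rose by 0.73 and 0.72. The median of that list was 0.08 and turned to -0.01 after median scaling. Of 14 listed interferon and antigen presentation genes 11 were analysed here. Of these, 3 were higher (27.3%) and 1 was lower (9.09%), with a median of 0.04 (-0.05 after median scaling). *Tap1*, the peptide transporter, and *Tapbp*, its partner, rose by 0.51 and 0.59. *Nlrc5*, an activator of these genes, had 19 probe sets, the brightest of which rose by 0.81, and the others are not described here. *Irf1* fell by 0.33. Of 11 listed heat shock and unfolded protein genes 10 were analysed here. Of these, 3 were lower (30%) and 2 higher (20%), with a median of -0.12. *Hsph1* and *Hsp90aa1*, cytosolic chaperones, fell by 0.94 and 0.60, *Hspa5*, a chaperone of the endoplasmic reticulum, fell by 0.36, and *Bag3*, a co-chaperone of autophagy, rose by 0.52.

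Lists of 2 other complexes were read beside the proteasome. The COP9 signalosome, which is built like the lid of the proteasome, had 5 of 10 genes lower, with a median of -0.39, and *Cops9*, *Cops5*, its catalytic subunit, *Cops2* and *Cops6* fell by 1.23, 1.81, 1.44 and 0.58. The chaperonin CCT, a folding barrel of the cytosol, had 7 of 9 genes lower, with a median of -0.67, and its subunits *Cct6a*, *Cct7*, *Tcp1* and *Cct5* fell by 1.01, 1.10, 0.86 and 0.76. For comparison, 16.2% of all named genes and 26.8% of bright ones were lower. The genes named for each complex are those with the smallest p, and all of them fell. Only *Cops8* (0.31) and *Cct6b* (0.06) had positive differences, and neither passed the threshold. Whether the proteasome differed from either complex was not tested.

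**Figure D4:**
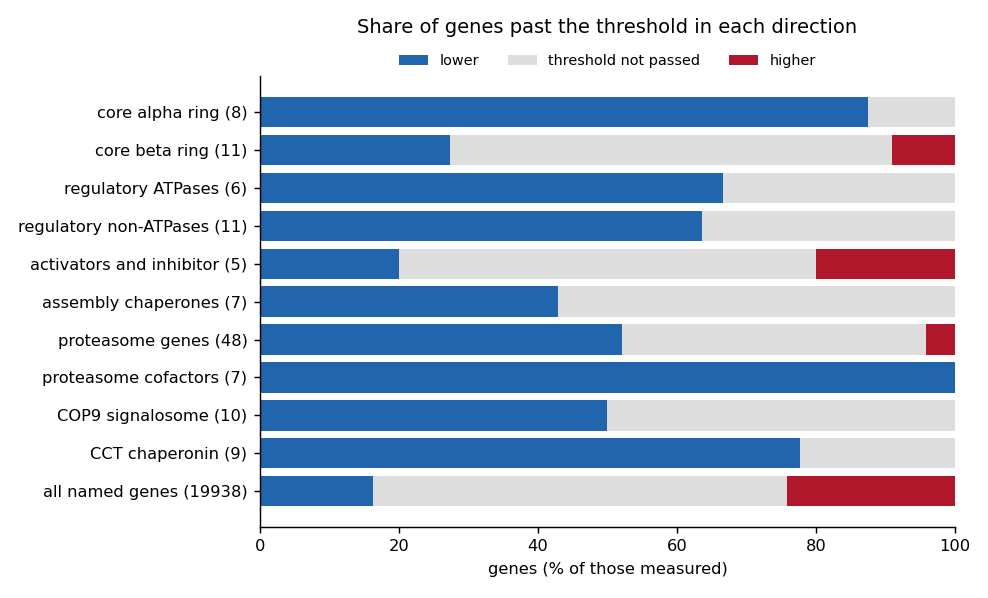
Share of genes (x axis, percent of those measured) lower, higher or short of the threshold in mutant cochleas for each role within the proteasome, for all 48 proteasome genes, for cofactors outside the name rule, for 2 other complexes and for all named genes (y axis, with the number of genes). The lower share is 87.5% in the alpha ring, 27.3% in the beta ring and 16.2% over all named genes. It is 26.8% over named genes with a mean log2 signal of 8 or more, which are not drawn. The higher calls in the beta ring and over all named genes depend on scaling.

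These are bulk samples, in which fewer cells of a type and less RNA per cell cannot be told apart. Some cell type markers differed between genotypes, beside 16.2% lower and 24.2% higher over all named genes. Of 11 spiral ganglion neuron genes 6 were lower (54.5%). The mean signal of the 11 was 9.0 and 9.02 on wild-type and 8.38 and 8.34 on mutant arrays. Of 12 skeletal muscle genes 9 were higher (75%). The mean signal of the 12 was 6.21 and 6.47 on wild-type and 6.81 and 7.17 on mutant arrays. In the cochlear duct list 3 of 14 genes were lower and 3 higher (21.4% each). *Sox2*, a factor of the prosensory domain, fell by 1.94 and *Epcam*, an epithelial adhesion protein, by 0.90, while *Myo7a*, a myosin of hair cells, rose by 1.17 and *Pax2*, an otic transcription factor, by 0.97. As a check of the labeled tissue, *Oc90* (12.73 to 12.88) and *Tecta* (11.26 to 11.66), which are made by the cochlear duct, were high on all arrays. For periotic mesenchyme and cartilage 2 of 10 were lower and 2 higher (20% each), and for macrophages and leukocytes 3 of 11 were higher (27.3%). Of 7 listed erythroid genes 4 were analysed here, of which 1 was lower and 3 were higher. For endothelium none of 8 passed by limma, beside 4 at an unadjusted p under 0.05 and 6 by SAM. Of 5 listed sex-linked genes 4 were analysed here, and the 3 Y-linked ones were lower, by 2.58 to 3.49. The part of these markers in the falls of the proteasome genes was not tested.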

How the data were processed

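RNA of whole E15 cochleas was hybridized to Mouse Gene ST arrays, 2 per genotype. The deposited log2 values are signals from the authors' RMA processing, whose steps are background correction, normalization between arrays and summary by probe set. The submitters' processing notes also name the build mm8. Probe sets were named through the platform annotation (21789 with 1 symbol, 21698 of them updated through RefSeq). The values were fitted with limma 3.58.1 in R 4.3.3 (lmFit, eBayes), without covariates or filter, with p-values adjusted by Benjamini-Hochberg over every probe set, and the spread rested on 2 residual and 2.91 prior degrees of freedom. The code was tested on simulated data. The number of arrays limits the precision. Where an array was left out, its genotype kept 1 array, assumed to vary like the others.

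Members and gene lists were chosen with earlier results of these data known. Array values are given for up to 4 called members per role and direction, the inducible subunits and their counterparts, and members whose probe sets differ in direction; other lists are described by up to 4 genes with the smallest p. *Psmd14*, *Nfe2l1* and some further genes were named for their role or after their values were seen. *Oc90* and *Tecta* were named to check the tissue. Alternatives were significance analysis of microarrays (SAM), the method that the study names, which was written anew here since its package was not installed, a trended prior, scaling to one median, a further quantile normalization, a filter that kept probe sets above the median signal, gene values averaged over probe sets, and leaving out each array.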

Additional observations from a re-analysis of the deposited data

How the results depend on the processing

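No paired analysis was made because the sources describe no pairing of wild-type with mutant arrays. Without each array in turn, the count of lower proteasome genes ranged from 11 to 22, that of higher ones was 1 each time, their median difference ranged from -0.42 to -0.29 and the count over all probe sets from 4611 to 10895. The difference of *Meis2* ranged from 0.06 to 0.32. Of the 25 falls, 10 passed in all alternatives tried, and these were also the 10 that passed without each array. SAM, which rests on 6 relabelings, called 26962 probe sets, 7 proteasome genes as higher and 31 as lower, and *Meis2* (0.19), beside 53.4% of all named genes as higher and 25.7% as lower. The paper reports far fewer differential transcripts by its own SAM, most of them downregulated. The version used here therefore does not stand for the study's test, and it removed few calls. After median scaling 1 proteasome gene was higher and 29 were lower, with a median of -0.46 and *Psmb2* at -0.05. After repeated quantile normalization 22 genes were lower, the signs of *Psma8* (-0.02), *Psmb10* (0.01) and *Psmb11* (-0.03) turned, and the ratio of *Psmb8* to *Psmb5* was higher by 0.43. The mean of both probe sets put *Psmb3* at -0.05. Without an array, *Psmb2* ranged from -0.06 to 0.12, *Psmb8* from -0.11 to 0.08 and *Psmb10* from -0.12 to 0.07. None of these sign changes concerned a called gene, and the cause was not tested.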
